A study of Homo sapiens with 6 samples.

Results

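The human zinc finger genes of chromosome 19 named ZNF were followed in maps of m6A, the N6-methylated adenosine found inside many messenger RNAs. Members were all genes on chromosome 19 whose symbol in the deposited peak lists is ZNF followed by digits, with an optional closing capital letter. The rule gave 152 genes of the 10785 with a peak in any list, and 701 peaks. The symbols of all 152 matched the RefSeq gene table, in which ZNF321P and ZNF833P are transcribed pseudogenes.

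The samples were U2OS cells, a human bone osteosarcoma line labelled wild type. Cells had received DF2 siRNA 1, DF2 siRNA 2 or a control siRNA. DF2 is YTHDF2, a cytoplasmic protein that binds m6A and is known for promoting the decay of the RNA it binds. Cytoplasmic RNA fragments of about 100 nt were enriched with an anti-m6A antibody, and 1 input and 1 m6A-IP sample were labelled for each of the 3 conditions. The authors deposited 1 peak list per condition, so no difference between lists could be set against a spread between replicates, and no p-value is given. Both siRNA lists were set against the same control list. A peak list does not measure RNA level, so neither the knock-down of YTHDF2 nor the abundance of any ZNF transcript was measured here. The labels call the cells epithelial. Among markers of the osteoblast lineage, COL1A1 and RUNX2 had a peak in every list, and ALPL, BGLAP, COL1A2, IBSP, SP7, SPARC and SPP1 had none in any. Of 7 epithelial markers KRT8 had a peak with both siRNAs and not in control, and the other 6 had none. The intervals given are 95% exact binomial (Clopper-Pearson) intervals and cover counting error only.

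C2H2 zinc finger proteins bind DNA through tandem fingers, and most of those encoded on chromosome 19 also carry a KRAB domain. Through that domain they recruit TRIM28 and, with it, the histone methyltransferase SETDB1, and many are known to repress transposable elements. The genes arose by repeated duplication and stand in clusters, and the fingers are usually encoded in the last exon, which also holds the stop codon and the 3′ UTR. In mammalian transcripts m6A is known to be frequent around the stop codon and in long last exons.

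The starts of 8 members are shown because their values recur below. ZNF787, ZNF865 and ZNF653 were the members with the letters ACTTCCGG within the first 10 transcribed bases, and each had a peak on its first 50 bases in both siRNA lists. In the control list ZNF653 had a peak there, and ZNF787 and ZNF865 had none. In ZNF550, ZNF416, ZNF530, ZNF551, ZNF780A and ZNF274 the same letters lay further in, and none of these had a peak there in any list. Of the 10 members with the letters on either strand within the first 50 bases, 3 had a peak there. Each line runs 5′ to 3′ along the transcribed strand, is 30 bases long and is taken from the RefSeq promoter table of GRCh38.p14. The first 4 letters lie before the RefSeq start. Capitals mark ACTTCCGG, which begins at the first transcribed base. The windows are chr19:56121270-56121299 on the minus strand for ZNF787, chr19:55605643-55605672 on the plus strand for ZNF865 and chr19:11505814-11505843 on the minus strand for ZNF653.
ZNF787: ggtcACTTCCGGcctgggcgcccgtccccc
ZNF865: cggcACTTCCGGtcgggccctcgggtctcc
ZNF653: cgccACTTCCGGtctggctcctaacaacgg

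The other 5 starts belong to genes of the cluster at chr19:51571283-53580269, and show how alike starts of duplicated genes can be. Not all starts of the cluster are like these, and those of ZNF175 and ZNF614 differ plainly. The windows are chr19:52735019-52735048 on the minus strand for ZNF611, chr19:52857594-52857623 on the minus strand for ZNF468, chr19:53333745-53333774 on the plus strand for ZNF845, chr19:53395145-53395174 on the plus strand for ZNF765 and chr19:53431980-53432009 on the plus strand for ZNF761.
ZNF611: acgcaaacccggaagcggatcgggtggagt
ZNF468: gcgcagaccaggaagtggatcccgtggaat
ZNF845: gcgcaaacccggaagcggatcgcatggagt
ZNF765: gcgcagacccggaagcggacggcgtggagt
ZNF761: gtgcagaccaggaagcggatagcgtggagt
ZNF611 and ZNF845 had 27 of the 30 bases in common, and ZNF611 and ZNF468, the least alike of these 5, had 23. Reads from such copies can be hard to place, and the sources used here do not say how reads with several matches were treated.

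Members held a near-constant share of each list. DF2 siRNA 1 gave 210 peaks in 130 members, DF2 siRNA 2 gave 235 peaks in 142 and the control gave 256 peaks in 149. These genes were 1.55% (1.30 to 1.84), 1.66% (1.40 to 1.95) and 1.56% (1.32 to 1.83) of the genes in the siRNA 1, siRNA 2 and control lists. Of the 246 protein-coding genes of this kind in RefSeq, 52.8% had a peak with siRNA 1, 57.3% with siRNA 2 and 60.2% in control. Of 263 such ZNF genes on other chromosomes, 65.0%, 69.2% and 74.5% had one in the same 3 lists, and of 1205 other protein-coding genes of chromosome 19, 37.7%, 35.6% and 34.9%. Several peaks per gene were common. More than 1 peak was found in 46.9% of members with siRNA 1, 52.1% with siRNA 2 and 51.0% in control. The shares were 38.6%, 37.8% and 39.4% of all genes of those lists. They were higher still, at 58.9%, 62.7% and 64.8%, in ZNF genes of other chromosomes. No member had more than 4 peaks.

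Most members had a peak in every list. A peak was present in all 3 lists for 124 of 152 members (81.6%, 74.5 to 87.4), and the background over all genes was 65.4%. ZNF genes of other chromosomes gave nearly the same share as members, 82.2%. A peak in control alone was found in 6 members (3.95%, 1.46 to 8.39), where the background was 12% and ZNF genes of other chromosomes gave 4.95%. With peaks of FDR under 0.01 the count was 10 of 150 (background 11.9%). Among peaks in the upper 50% by score of each list it was 42 of 83 (50.6%, background 13.3%). ZNF genes of other chromosomes gave 25.5% of 137 with that cut. It kept 26 members with siRNA 1, 39 with siRNA 2 and 81 in control. The members it left with a peak in control alone had siRNA peaks below the cut. The place of the count below or above the background thus depends on the peaks kept. With all peaks the members were ZNF571, ZNF583, ZNF112, ZNF569, ZNF404 and ZNF580. Their control peaks covered 1800 bases in ZNF571 and in ZNF583, 1600 in ZNF112, 800 in ZNF569, 600 in ZNF404 and 200 in ZNF580. All 6 had a control score in the lower part of the list, between percentile 1.27 in ZNF580 and 35.7 in ZNF571, which is below the middle of the list for each.

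Peaks in both siRNA lists and none in control were listed for 2 members (1.32%, 0.160 to 4.67, background 3.55%), ZNF177 and ZNF358. ZNF177 had 800 covered bases with siRNA 1 and with siRNA 2, but both peaks overlapped a control peak that the authors gave to the read-through gene ZNF559-ZNF177. ZNF358, which is known without a KRAB domain, had 800 covered bases with siRNA 1 and 600 with siRNA 2, and these peaks shared bases with peaks given to CTD-2207O23.12. No member had a peak with siRNA 1 alone (0%, up to 2.40, background 5.03%), and ZNF575 had one with siRNA 2 alone (0.658%, background 2.85%). A peak was missing with siRNA 1 alone in 15 members (9.87%, background 7.57%) and with siRNA 2 alone in 4 (2.63%, background 3.62%), namely ZNF226, ZNF260, ZNF493 and ZNF846. ZNF260 covered 600 bases with siRNA 1 and 3600 in control, and ZNF493 covered 200 with siRNA 1 and 2200 in control.

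The members differed between lists in how far their peaks reached. Covered bases are the exonic bases under all peaks of a gene in a list, counted once. They stood at a median of 1200 with siRNA 1, 1600 with siRNA 2 and 2200 in control over the 124 members with a peak in every list. Over all 7053 genes with a peak in every list the medians were 1000, 1000 and 1200. Per gene, the median ratio to control was 0.58 with siRNA 1 (quartiles 0.31 and 0.78) and 0.75 with siRNA 2 (quartiles 0.57 and 0.89), and over all genes it was 0.86 and 1.

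**Figure D1:**
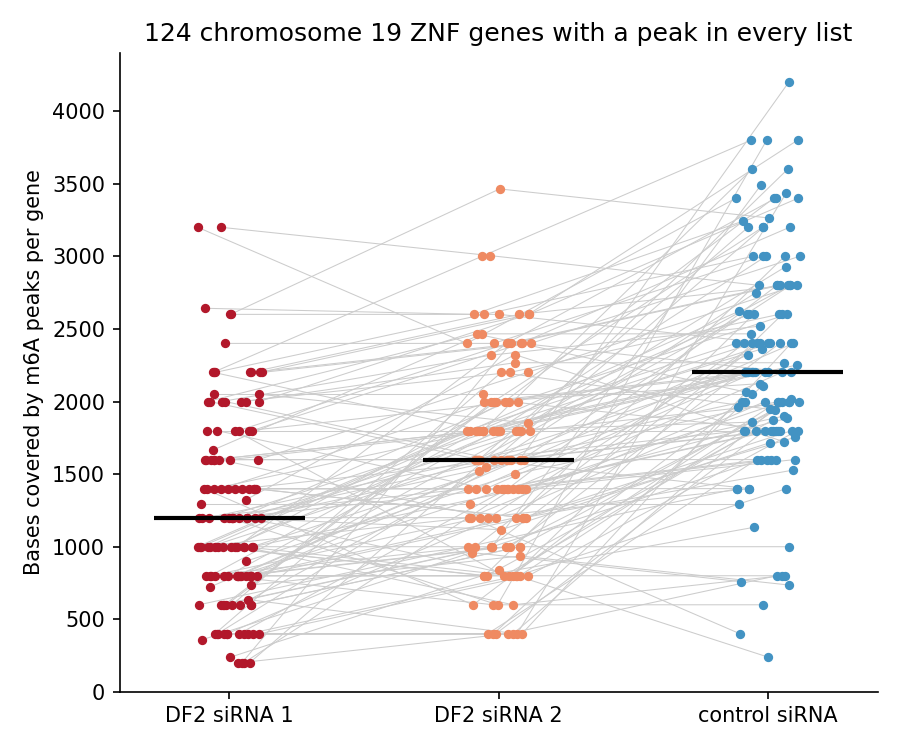
Bases covered by m6A peaks per gene (linear axis) in the DF2 siRNA 1, DF2 siRNA 2 and control lists for the 124 chromosome 19 ZNF genes with a peak in every list. Each point is a gene, grey lines join the same gene and black bars are medians, at 1200, 1600 and 2200 bases.

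With siRNA 1, 112 of the 124 members covered fewer bases than in control (90.3%, 83.7 to 94.9), where the background over all genes was 56.7%. With siRNA 2, 101 did (81.5%, 73.5 to 87.9), and the background was 47.8%. More bases than in control were covered by 7 members with siRNA 1 (5.65%, background 21%) and by 13 with siRNA 2 (10.5%, background 23.2%). At most 50% of the control bases were left in 56 members with siRNA 1 (45.2%, background 15.9%) and in 29 with siRNA 2 (23.4%, background 9.43%). Among ZNF genes of other chromosomes, 81.9% of 166 covered fewer bases with siRNA 1 and 66.9% with siRNA 2. Among the genes of chromosome 19 with other symbols, a set that still holds read-through and other zinc finger genes, 33.1% of 417 did with siRNA 1 and 24.7% with siRNA 2.

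**Figure D2:**
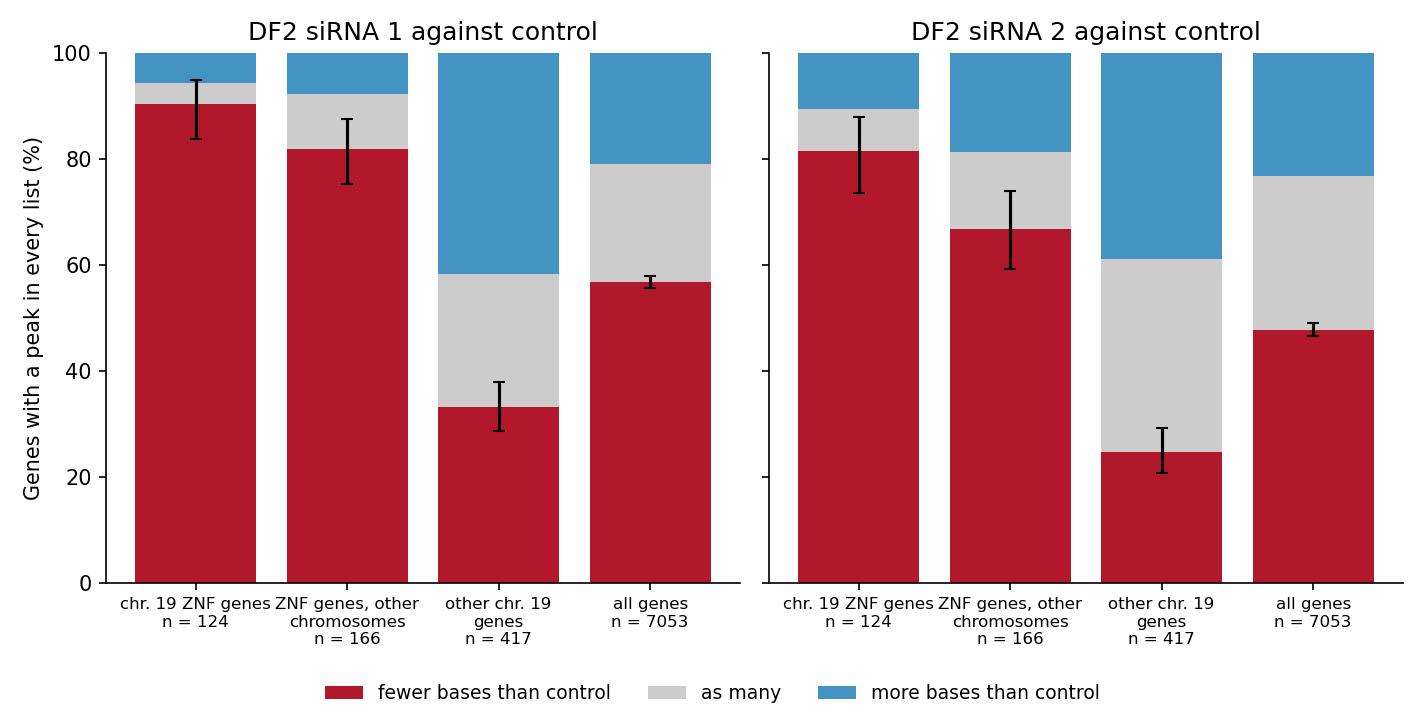
Share of genes (percent of genes with a peak in every list) that covered fewer, as many or more bases with DF2 siRNA 1 (left) and DF2 siRNA 2 (right) than in control. Whiskers are 95% exact binomial intervals of the red share; chromosome 19 ZNF genes stand at 90.3% and 81.5%, and all genes at 56.7% and 47.8%.

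Members were wide and ranked low by score in control, and both properties moved with the result over all genes. Among genes that covered at least 1200 bases in control and whose strongest control peak lay between score percentiles 25 and 70, fewer bases were covered with siRNA 1 by 97.8% of 91 members and 85.7% of 1510 genes of all kinds. With siRNA 2 the shares in the same genes were 92.3% and 72.4%. Under the same cuts, 82 ZNF genes of other chromosomes gave 92.7% (84.8 to 97.3) with siRNA 1 and 74.4% (63.6 to 83.4) with siRNA 2. With siRNA 1 that interval overlaps the one of members (92.3 to 99.7). The cut at 1200 bases uses the control coverage that the siRNA lists are compared with. It therefore favours fewer bases with the siRNAs in any set. Over all genes the siRNA 1 share rose from 56.7% to 72.4% with that cut alone. In peaks of the upper 50% by score of each list, only 23 members were left in all 3 lists. With siRNA 1, 69.6% of these 23 (47.1 to 86.8) covered fewer bases, against 46.1% of all genes treated alike, and with siRNA 2 43.5% (23.2 to 65.5), against 38.7%. The part of peak score in the result was not tested beyond these values.

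Among members with a peak in every list, the lowest ratios to control were those of ZNF765, ZNF611 and ZNF547 with siRNA 1. ZNF765, which is known to bind evolutionarily young L1 elements, covered 200 bases with siRNA 1, 1800 with siRNA 2 and 3600 in control. ZNF611, a KRAB protein known to bind SVA elements, covered 200, 2400 and 2800 bases in those lists. ZNF547 covered 200 bases with siRNA 1, 1400 with siRNA 2 and 2200 in control. In each of these genes siRNA 1 had a single peak of 200 bases, and the extent with siRNA 2 lay between those with siRNA 1 and in control. In other members both siRNA lists held short peaks. ZNF816 covered 400 bases with each siRNA and 2110 in control, and ZNF708 400 with each and 2000 in control. ZNF480 covered 636 bases with siRNA 1, 400 with siRNA 2 and 3436 in control.

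In ZNF765 the control list held a stop codon peak of 2600 bases at chr19:53408816-53411415 on the plus strand. The only siRNA 1 peak, at chr19:53409616-53409815, was 200 bases of 3′ UTR inside it. Of the 3 siRNA 2 peaks, those of 800 and 600 bases also lay inside it and in the 3′ UTR. A further control peak of 1000 bases, annotated as 5′ UTR, coding sequence and stop codon, was matched by no siRNA peak. ZNF611, on the minus strand, had control peaks of 1200 and 1600 bases. Its siRNA 2 peaks of 800, 600 and 1000 bases stood over both, and the siRNA 1 peak of 200 bases stood over the one of 1600 bases alone.

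Members known from other work to lack a KRAB domain are set beside the rest. This list was made after the values had been seen, from 21 ZNF genes of chromosome 19 known without the domain, and gets no test. Of its 14 genes with a peak in every list, 5 covered fewer bases with siRNA 1 and 3 with siRNA 2, and the median ratios to control were 1 and 1.04. The other 110 members were not checked for the domain, and some of them may lack it too. Of these 110, 107 covered fewer bases with siRNA 1 (97.3%, 92.2 to 99.4) and 98 with siRNA 2 (89.1%, 81.7 to 94.2). Their median ratios were 0.50 and 0.71. The 14 genes covered a median of 1100 bases in control and the other 110 covered 2200, and the part of this difference in the ratios was not tested. Among genes that covered at least 1200 bases in control, 4 of 7 on the list covered fewer with siRNA 1 and 2 of 7 with siRNA 2. Of the other 107, 104 and 96 did. ZNF787 covered 1200 bases with each siRNA and 400 in control. ZNF865 covered 3200 bases with siRNA 1, 3005 with siRNA 2 and 2800 in control, and ZNF579 covered 1600 with each siRNA and 1400 in control. ZNF628 covered 2051 bases in all 3 lists. ZNF146, a protein made almost only of fingers, was one that covered less, with 2400 bases with each siRNA and 3000 in control. ZNF507 covered 2000, 1600 and 2200 bases. Among the other 110, ZNF101 was the member that covered more with siRNA 1, at 2600 bases with each siRNA and 2400 in control.

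Along the chromosome, RefSeq genes of this kind formed 16 groups when neighbours under 1 Mb apart were joined, numbered from the short arm. The group at chr19:51571283-53580269 (number 15) holds 39 genes, of which 19 had a peak and 17 had one in every list. All 17 covered fewer bases with siRNA 1 and with siRNA 2 than in control, with median ratios of 0.32 and 0.50 and medians of 800 bases with siRNA 1, 1400 with siRNA 2 and 2800 in control. In the group at chr19:36182060-37779586 (number 9) all 9 such members covered fewer bases with each siRNA, with ratios of 0.46 and 0.67. The most distal group, chr19:55476617-58489533 (number 16), had 45 of its 59 genes with a peak, and 34 of 41 covered fewer bases with siRNA 1 and 29 of 41 with siRNA 2. Without group 15, fewer bases were covered by 88.8% of 107 members with siRNA 1 and by 78.5% with siRNA 2, so the direction did not rest on that group.

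**Figure D3:**
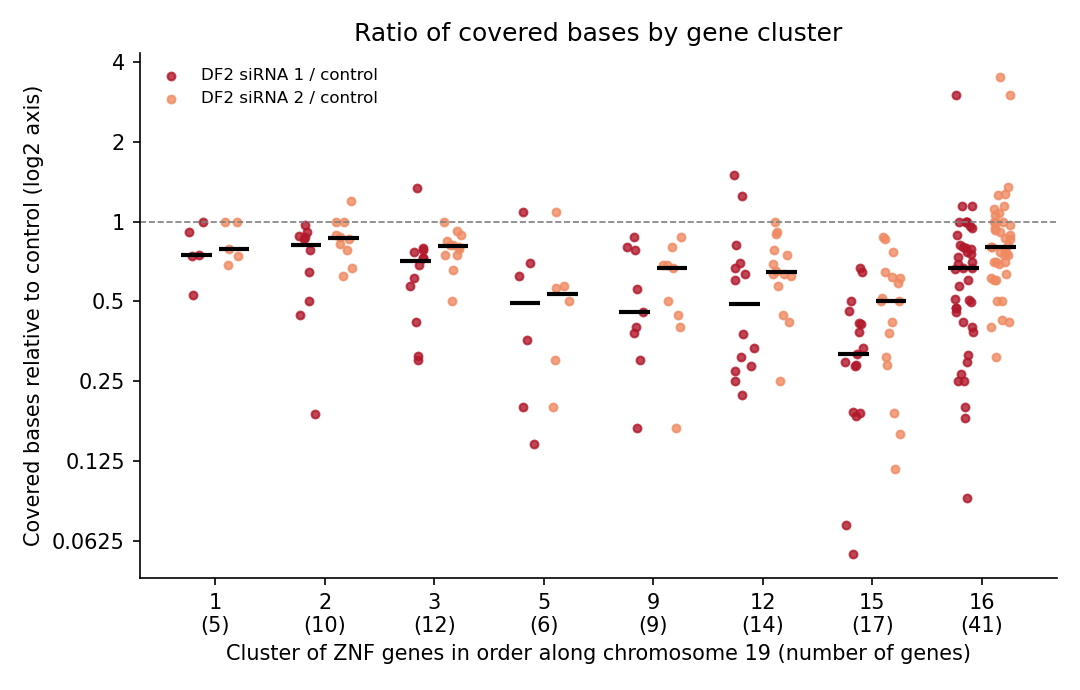
Covered bases with DF2 siRNA 1 (left points of each pair) and DF2 siRNA 2 (right points) relative to control, on a log2 axis, for groups of chromosome 19 ZNF genes with at least 5 members in every list. Points are genes, black bars are medians, and group 15 has the lowest siRNA 1 median, at 0.32.

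The group at chr19:19668153-24129968 (number 5), which holds the primate-expanded family of ZNF91, had a peak in any list in 9 of its 37 genes (24.3%, 11.8 to 41.2), where all 246 RefSeq genes of this kind gave 61.4%. ZNF91, which is known to repress SVA elements, had none in any list, and neither had ZNF43, ZNF85, ZNF93, ZNF208 or ZNF257 of that group. Outside it ZNF382, ZNF536, ZNF649 and ZNF808 had none either, so 10 of 20 genes picked for a known role had a peak. The lists do not tell a gene without m6A from one that is not expressed. ZNF274, known to bind the 3′ ends of ZNF genes themselves, covered 800 bases with each siRNA and 1133 in control. ZNF224, a repressor of the aldolase A gene, covered 1800 bases with siRNA 1, 1400 with siRNA 2 and 2200 in control. ZNF432 covered 1000, 2000 and 3400 bases in those lists, and ZNF675, an inhibitor of TRAF6 signalling, 1400, 600 and 2000.

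The peaks of members lay mainly at the stop codon, and less so with the siRNAs. A peak was called a stop codon peak if the authors' annotation of it includes one. Such peaks were 48.1% of member peaks with siRNA 1 (41.2 to 55.1), 55.7% with siRNA 2 (49.1 to 62.2) and 66.8% in control (60.7 to 72.5). Over all peaks the shares were 43.5%, 43.7% and 42.9%, about the same in each list. ZNF genes of other chromosomes gave 48.5%, 52.4% and 54.0%, the same order over a smaller range. Member peaks in coding sequence alone were 17.1% with siRNA 1, 10.2% with siRNA 2 and 6.25% in control. In ZNF genes of other chromosomes these were 16.6%, 11.2% and 8.96%. Member peaks with 3′ UTR and no stop codon were 23.3%, 22.6% and 15.2%. ZNF genes of other chromosomes gave 20.2%, 19.5% and 21.4%, without that order. Peaks with 5′ UTR and neither stop codon nor 3′ UTR were 10.5%, 8.09% and 7.81% of member peaks, against 18.9%, 16.6% and 14.4% of all peaks. Counting every peak whose annotation includes 5′ UTR, the shares were 18.1%, 18.3% and 26.2% of member peaks and 27.99%, 25.5% and 23.3% of all peaks.

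**Figure D4:**
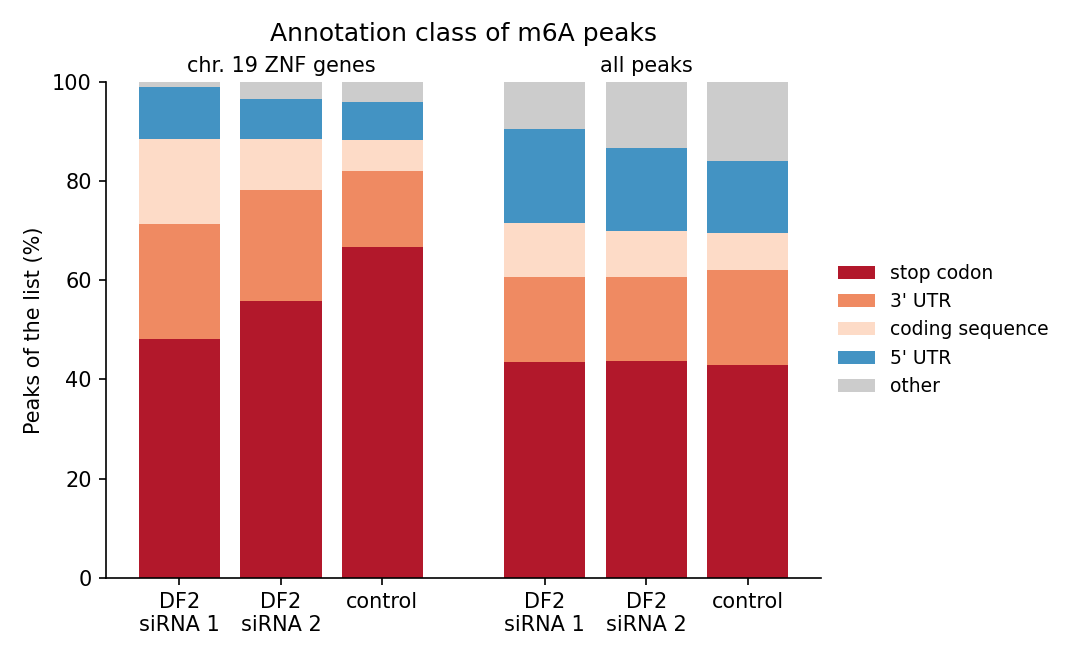
Annotation class of m6A peaks as a percent of the peaks in the DF2 siRNA 1, DF2 siRNA 2 and control lists, for chromosome 19 ZNF genes (left bars) and for all peaks (right bars). Stop codon peaks make up 48.1%, 55.7% and 66.8% of the ZNF peaks and 43.5%, 43.7% and 42.9% of all peaks.

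Following the 171 control stop codon peaks of members shows where those classes went. A siRNA 1 stop codon peak lay over 91 of them (53.2%, 45.4 to 60.9), a peak of another class alone lay over 35 (20.5%, 14.7 to 27.3), and nothing lay over 45 (26.3%, 19.9 to 33.6). With siRNA 2 the counts were 117 (68.4%), 24 (14.04%) and 30 (17.5%). Over all 6559 control stop codon peaks, a peak of another class alone lay over 8.995% with siRNA 1 and 6.91% with siRNA 2, and nothing lay over 18.1% and 15.7%. For the 217 such peaks of ZNF genes of other chromosomes, another class alone lay over 14.3% and 8.76%, and nothing over 19.8% and 9.68%. The width of the peaks moved with the class. Stop codon peaks of members had a median width of 800 bases with siRNA 1, 1000 with siRNA 2 and 1600 in control, and over all genes 752, 800 and 800. The part of width in the class shares was not tested. Among the strongest peak of each member, 60.0% with siRNA 1, 69.0% with siRNA 2 and 83.2% in control included the stop codon.

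Within control peaks the ends were the least covered. Along the 92 control stop codon peaks of members that were annotated as coding sequence, stop codon and 3′ UTR and were at least 1000 bases wide, siRNA 1 peaks covered 47.5% of the bases on average and siRNA 2 peaks 66.0%. Along the 1879 such peaks of all genes they covered 73.8% and 81.3%. Each control peak was divided into 10 equal parts from 5′ to 3′. In members the first part was covered to 29.2% with siRNA 1 and 38.9% with siRNA 2, the fifth to 58.8% and 76.4%, and the last to 23.5% and 35.7%. All genes had the same shape at a higher level, with 62.4%, 85.2% and 45.7% in those parts with siRNA 1 and 70.1%, 90.8% and 56.4% with siRNA 2. ZNF genes of other chromosomes had 38.0%, 69.2% and 22.4% with siRNA 1 and 51.1%, 84.3% and 37.1% with siRNA 2. For 21 of the 92 member peaks with siRNA 1 (22.8%) and 24 with siRNA 2 (26.1%), 2 or more separate peaks matched the control peak. Over all genes this was so in 14.8% and 11.9%, and in ZNF genes of other chromosomes in 22.0% and 18.0%. No siRNA 1 peak overlapped 16 of the 92 (17.4%), and no siRNA 2 peak overlapped 4 (4.35%). Over all genes the shares without overlap were 5.80% and 3.57%, and in ZNF genes of other chromosomes 16.0% and 5.0%.

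**Figure D5:**
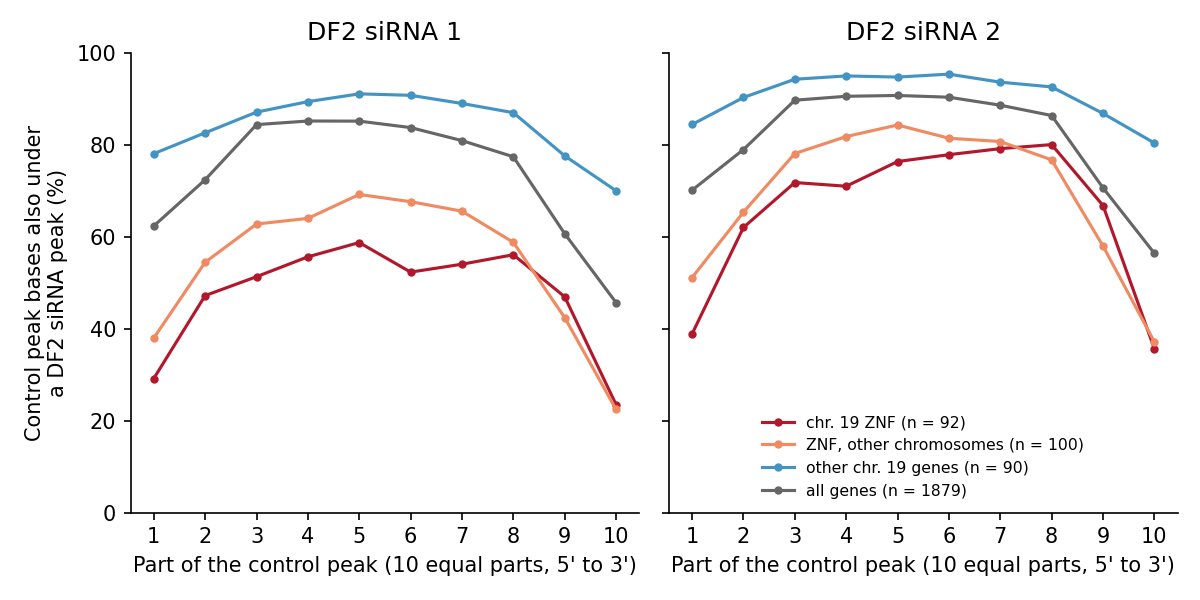
Percent of bases of wide control stop codon peaks that also lay under a DF2 siRNA 1 (left) or DF2 siRNA 2 peak (right), by position in 10 equal parts of the control peak from 5′ to 3′, with a line for each of 4 sets of genes (n is the number of control peaks). In the 92 peaks of chromosome 19 ZNF genes the last part was covered to 23.5% and 35.7%, and the fifth to 58.8% and 76.4%.

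The position of member peaks in the gene was alike between lists. The median midpoint lay at 84.6% of the gene span with siRNA 1, 83.3% with siRNA 2 and 85.1% in control, or 2776, 2796 and 2750 bases from the gene's end in RefSeq. In the last 20% of the span lay 59.3%, 58.0% and 59.0% of member peaks, and 49.1%, 50.6% and 51.9% of all peaks. Most siRNA peaks of members touched a control peak, but fewer matched its extent. Of siRNA 1 peaks, 94.8% shared at least 1 base with a control peak (90.8 to 97.4) and of siRNA 2 peaks 93.6% (89.7 to 96.4), where all peaks gave 81.5% and 86.1%. When both peaks had to share 50% or more of their bases, the values were 43.3% (36.5 to 50.3) and 60.9% (54.3 to 67.1), where all peaks gave 67.1% and 76.0%. Of the 256 control peaks of members, 63.7% were met by a siRNA 1 peak and 73.0% by a siRNA 2 peak, close to the 67.1% and 73.4% of all control peaks.

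Of the 256 control peaks of members, 57 (22.3%, 17.3 to 27.9) were met in neither siRNA list, the same share as over all control peaks. Of these, 37 lay in 30 of the members with a peak in every list, which is 17.4% of the 213 control peaks of such members (12.5 to 23.1), where the background was 12.3%. The 5 genes with the highest-scored of these were ZNF28, ZNF708, ZNF816, ZNF331 and ZNF480, and all but ZNF708 lie in group 15. ZNF28 covered 1200 bases with siRNA 1, 600 with siRNA 2 and 3800 in control. ZNF331, an imprinted gene, covered 1200, 1800 and 2928 bases, with 2 peaks with each siRNA and 3 in control. The members with the most control peaks were ZNF324, ZNF419, ZNF497 and ZNF235, with 4 each, and 23 members had 3, of which ZNF791 had the highest control score. ZNF324 had 4 peaks in each list, ZNF419 had 1 with siRNA 1 and 2 with siRNA 2, and ZNF235 had none with siRNA 1 and 1 with siRNA 2. Some of these regions are shared: 61 of the 701 member peaks, in 28 genes, held bases that also lay under a peak given to another gene, among them ZNF28 with ZNF468 and ZNF324 with ZNF446. Without these 28 genes, 88.1% of 101 members covered fewer bases with siRNA 1 and 80.2% with siRNA 2.

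Members ranked low among all peaks by score, but not by every value in the control list. The score is the authors' own value for a peak and was ranked within its list, so percentiles stand side by side and measure no change. The median member peak lay at percentile 20.8 with siRNA 1, 31.0 with siRNA 2 and 41.9 in control. The median fold enrichment, also the authors' value, was 8.68, 15.2 and 27.4 for member peaks in those lists, and 14.9, 18.7 and 19.1 for all peaks. Their −log10 FDR had medians of 3.56, 4.35 and 8.06 for member peaks, and 4.94, 4.68 and 4.85 for all peaks. In control both values were thus higher for member peaks than for all peaks. Peaks of ZNF genes of other chromosomes shared this in control, with medians of 27.1 and 7.35, and their median score percentile was 50.3. Only 1, 3 and 4 member peaks were in the top 10% of the siRNA 1, siRNA 2 and control lists. The 10 strongest members over the 3 lists were ZNF121, ZNF146, ZNF562, ZNF865, ZNF526, ZNF317, ZNF264, ZNF331, ZNF628 and ZNF460. In ZNF121 the strongest peak lay at percentile 91.8 with siRNA 1, 93.8 with siRNA 2 and 96.2 in control, and 2051, 1851 and 2251 bases were covered. ZNF562 covered 1200, 1400 and 1400 bases, and ZNF317 2000, 2465 and 2065. ZNF526 covered 1800, 2400 and 2200 bases, and ZNF460 2200, 2600 and 2800. ZNF264 covered 1600, 1800 and 2400 bases. The siRNA lists entered the mean percentile that chose these 10, so their extents are given as a description.

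At the 5′ end, peaks of members were counted on the first 50 transcribed bases. Of the 136 members in the RefSeq promoter table, with the first entry of each taken, 16 had a peak there with siRNA 1 (11.8%, 6.88 to 18.4), 11 with siRNA 2 (8.09%, 4.11 to 14.01) and 16 in control (11.8%). Of the 7113 genes of all kinds with a peak and an entry, 22.1%, 18.8% and 17.6% had one in those lists. A peak there was found in any list for 28 members, and in all 3 for ZNF146 and ZNF653. ZNF468, shown above, had one with each siRNA and none in control, ZNF761 with siRNA 1 alone, and ZNF845 with siRNA 1 and in control. The letters ACTTCCGG, searched on the transcribed strand over the first 10 transcribed bases, were in 2.21% of member starts and in 0.227% of all 27305 promoters. On both strands (ACTTCCGG or CCGGAAGT) over the first 50 bases they were in 10 members (7.35%) and 0.707% of all promoters, and over the whole window of 250 bases before to 50 after the start in 22.1% and 4.35%. Of the 10 members, 3 had a peak there in any list. A match describes letters in a window and shows no bound factor.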

How the data were processed

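Cytoplasmic RNA of U2OS cells was sequenced as input and m6A-IP in 6 samples of 3 conditions, assigned to DF2 siRNA 1, DF2 siRNA 2 or control by their labels. HISAT2 and hg38 are named in the submitters' processing notes, without versions, and the sources used here do not give the peak caller, the merging rule or the annotation release. Each of the 3 deposited lists is marked as merged over r1 and r2, per the file headers and names. For each peak the authors give a score of undescribed definition, a fold enrichment (ratio) and a −log10 FDR, per the file headers. Every deposited peak had an FDR under 0.05. Read depth is unknown, so precision is that of the number of peaks or genes.

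Blocks were read with starts raised by 1, and on the minus strand block sizes were reversed to match the block starts. Peaks of different lists on the same strand were taken as shared if their blocks overlapped by at least 1 base. Covered bases per gene and list are the union of block bases. Stop codon, 5′ UTR, 3′ UTR and coding classes follow the authors' annotation. Gene spans, biotypes and promoter sequences come from RefSeq GRCh38.p14, which is the assembly of the hg38 build in the notes. Shares carry Clopper-Pearson intervals (scipy 1.17.1, with pandas 2.3.3, numpy 2.4.6, matplotlib 3.10.9 and Python 3.11.15). On simulated data, 2000 of 2000 planted regions were given their set of lists, and 80 of 80 genes with trimmed peaks were found to cover fewer bases with each siRNA. The trimmed genes were built with fewer bases, so this outcome was set in advance. Peak widths were summed there, so the union of block bases was not checked by it.

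The members, gene lists and comparisons were chosen with earlier results of these data known. The comparison of covered bases, its alternatives and the list of genes without a KRAB domain were added after values had been seen. Named members were those with a peak in control alone or in both siRNA lists alone, the 10 with the highest mean score percentile, the 5 with the most control peaks, 20 of known role, and the 5 with the highest control peak met in neither siRNA list. Other names were chosen after their values were seen. Alternatives were a stricter FDR, equal list lengths, the upper 50% by score, other overlaps, other symbol rules and other units of a peak. Protein sequences, base-level m6A motifs and sequences around stop codons were not analysed here.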

Additional observations from a re-analysis of the deposited data

How the results depend on the processing

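The share of members covering fewer bases than in control kept its direction under each alternative with siRNA 1, from 69.6% to 97.8%. With siRNA 2 it was 43.5% in the upper 50% of each list by score, where 23 members remained, and otherwise lay between 69.4% and 92.3%. For siRNA 1 and siRNA 2 the values were 69.6% and 43.5% in the upper 50% by score. They were 82.3% and 69.4% when more than 200 bases fewer were required, and 97.8% and 92.3% among genes wide and of middling score in control. A choice of genes by their control coverage itself favours fewer bases with the siRNAs. The other settings moved neither share beyond its interval. In the upper 50% by score, members with a peak numbered 26 with siRNA 1, 39 with siRNA 2 and 81 in control. Of 83 members, 42 had a control peak alone (50.6%, against 13.3% of all genes) and 1 had a peak in both siRNA lists alone. Among ZNF genes of other chromosomes a control peak alone was found in 25.5% of 137. With all peaks only 6 members had a control peak alone, all below the middle of the control list. The 42 thus had siRNA peaks that fell below this cut. Stop codon shares there were 75%, 74% and 85.3%. Peaks found in another list there were 93.8% of siRNA 1 peaks in siRNA 2, 60.0% of siRNA 2 peaks in siRNA 1, and of control peaks 31.6% in siRNA 1 and 47.4% in siRNA 2. The count of members with a peak in control alone was 10 with an FDR under 0.01, and 21 against siRNA 1 alone and 10 against siRNA 2 alone. Matched by position in place of symbol, 1 member had a peak in both siRNA lists alone.

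With the same number of top-scored peaks from each list, the control stop codon share was 72.6%, and 70.4% and 80.5% of control peaks were found with siRNA 1 and siRNA 2. When 50% of each peak had to be in common, siRNA 1 peaks were found to 68.1% in siRNA 2 and 43.3% in control, siRNA 2 peaks to 60.4% in siRNA 1 and 60.9% in control, and control peaks to 35.2% in siRNA 1 and 55.9% in siRNA 2. Stop codon shares were 40.5%, 46.8% and 50.4% in siRNA 1, siRNA 2 and control without peaks that also touch 5′ UTR or non-coding RNA, and 60.0%, 69.0% and 83.2% among the strongest peak of each gene. The order of the lists in stop codon share was thus siRNA 1, siRNA 2, control from low to high in each of these settings except the upper 50% by score, where siRNA 1 and siRNA 2 changed places. The causes of these differences were not tested. Of all alternative values, 62 stayed within the main interval or within 1.5 times the main count, and 37 did not. No paired analysis was possible because each condition has 1 list, and the labels share a single replicate number. The planned description of proteins was not run, since protein sequences were not used here. Depth is unknown, so a peak missing from a list is not shown to be absent from the RNA.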

Other observations

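The partners through which KRAB zinc finger proteins repress were looked at as a list of 26 genes. Of these, 16 had a peak with siRNA 1, 15 with siRNA 2 and 18 in control, and 15 had one in every list. Among the 15, 7 covered fewer bases than in control with siRNA 1 and 8 with siRNA 2. These counts are near the background over all genes, 56.7% and 47.8%. The median ratios were 1 and 0.88, and over all genes 0.86 and 1. ATRX, a chromatin remodeller, covered 2600 bases with siRNA 1, 2200 with siRNA 2 and 3800 in control. MORC2, which acts with the HUSH silencing complex, covered 1800, 2400 and 3200 bases. SETDB1 covered 1400 bases with each siRNA and 1600 in control, and UHRF1, which brings DNMT1 to replicated DNA, 400, 800 and 600. ATF7IP2 and SMARCAD1 had peaks in control alone, covering 600 and 1200 bases, where the background over all genes was 12%. TRIM28, the protein that KRAB domains bind, had no peak in any list, and neither had CBX3, CBX5, DNMT1, EHMT2, HDAC1, HDAC2 or PPHLN1.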
